A study of Mus musculus with 43 samples.

Results

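The 8 genes described here are Gata4, Gata6, Sox17, Sox7, Foxa2, Hnf4a, Cited1 and Pdgfra, a set of endoderm transcription regulators together with the PDGF receptor alpha chain. They were taken by symbol from a deposited gene table of 22462 genes, in which each symbol had a single row. All 8 had been tested by the authors, as had 11362 genes in all. The genes were chosen by their control and knockout FPKM in this table, so these values are given as a description. The RNA came from E14 mouse embryonic stem (ES) cells grown in serum with LIF on gelatin. The control group held 3 libraries with the genotype Control, and the knockout group 3 libraries with the genotype MTF2 KO. MTF2 is a Polycomb-like partner of Polycomb repressive complex 2 (PRC2), which methylates lysine 27 of histone H3. No treatment was labelled for the RNA samples. The labels do not say how the knockout was made or whether it is 1 clone. The authors ran Cuffdiff on polyadenylated RNA and deposited a single FPKM per gene for each group, fragments scaled to transcript length and library size, with the 3 libraries combined. No spread between libraries can be given, and depth is unknown.

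The primitive endoderm is the layer that separates from the epiblast in the blastocyst and later gives rise to visceral and parietal endoderm of the yolk sacs. FGF signalling through ERK promotes the primitive endoderm programme in its precursors. The GATA factors of this programme repress the epiblast factor NANOG and switch on SOX17, SOX7, PDGFRA and the basement membrane genes. Forced GATA4 or GATA6 expression converts mouse ES cells to cells of this type, and serum-grown ES cultures hold a small share of cells that express its genes spontaneously. In bulk RNA, more cells of a type and more RNA per cell cannot be told apart.

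The targeted gene was checked first. Mtf2 measured 74.3 FPKM in the control group and 44.7 FPKM in the knockout group, 60.2% of the control level (Cuffdiff q = 0.0496 in the authors' deposited table). The transcript was therefore lower and still present, which is a weak check of the genotype labels.

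Of the 8 regulators, 7 had a higher FPKM in knockout cells, by 10.4-fold to 64.9-fold, and 1, Hnf4a, had a lower one. By a q at or under 0.05 in the authors' deposited table, 4 of the 8 passed as higher, 0 passed as lower and 4 did not pass. Over all 11362 tested genes, 49.8% had a higher FPKM in knockout cells, 6.90% were called higher and 6.03% lower. The 4 calls also held at a q of 0.01 and with a minimum change of 2-fold. At these settings 3.86% and 4.67% of tested genes were called higher. When a q at or under 0.05 was joined with 1 FPKM or more in both groups, 3 calls held. Of all 11362 tested genes, 6.15% were called higher and met this minimum. These shares are given for reference only, because the same contrast chose the genes. Control levels ran from 0.367 to 2.25 FPKM, against a median of 11.3 FPKM over tested genes. Summed over the 8 genes, the level was 9.64 FPKM for control and 205 FPKM for knockout cells. The median log2 ratio, log2((knockout FPKM + 0.5)/(control FPKM + 0.5)), was 3.44 for the 8 genes and -0.0035 for all tested genes. Of the 8, 4 lay under 1 FPKM in control cells. As 0 tested genes lay under 1 FPKM in both groups, those 4 were tested only because their knockout value was higher.

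The zinc finger factors GATA4 and GATA6 act at the top of the primitive endoderm programme. Gata4 (chromosome 14, 63198922 to 63245271, mm10) measured 2.17 FPKM in the control group and 71.7 FPKM in the knockout group, 33.0-fold higher. Its deposited log2 change was 5.04, with an error of 0.73 implied by the deposited test statistic (log2 change divided by the statistic) and q = 0.0012 in the authors' deposited table. Gata4 had the highest knockout level of the 8 genes. Gata6 (chromosome 18, 11052510 to 11085635, mm10) measured 1.24 FPKM in the control group and 12.9 FPKM in the knockout group, 10.4-fold higher. The change was 3.38 on the deposited log2 scale, with an implied error of 0.92 and q = 0.0012 in the authors' deposited table. Both factors were called higher, and in knockout cells the level of Gata4 exceeded that of Gata6, which control cells held at a more similar level.

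SOX17 and SOX7 are the SoxF factors of this lineage and act downstream of the GATA factors. Sox17 (chromosome 1, 4490931 to 4497354, mm10) measured 0.710 FPKM in the control group and 46.1 FPKM in the knockout group, a ratio of 64.9. It had the largest ratio of the 8 genes. With a deposited log2 change of 6.02 and an implied error of 1.45 it nonetheless had q = 0.292 in the authors' deposited table, and the gene was not called. Sox7 (chromosome 14, 63943674 to 63950732, mm10) had the lowest control level, 0.367 FPKM, and reached 11.3 FPKM in the knockout group, 30.7-fold higher. The deposited change was 4.94 on the log2 scale with an implied error of 1.36 and q = 0.0071 in the authors' deposited table, a call.

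FOXA2 is a forkhead factor of visceral endoderm and of definitive endoderm, the layer that gives rise to the gut. Foxa2 (chromosome 2, 148042877 to 148046969, mm10) measured 0.904 FPKM in the control group and 9.92 FPKM in the knockout group, a ratio of 11.0. Its deposited log2 change of 3.46 had an implied error of 1.22 and q = 0.493 in the authors' deposited table, so it was not called. HNF4A is a nuclear receptor needed for the later secretory functions of the visceral endoderm. Hnf4a (chromosome 2, 163547187 to 163572910, mm10) had the highest control level of the 8 genes, 2.25 FPKM, and the lowest knockout level, 1.08 FPKM. The deposited log2 change of -1.06 had an implied error of 0.93 and q = 0.232 in the authors' deposited table, and it was not called. Across all tested genes, 9.90% had a log2 ratio as low as that of Hnf4a or lower. Hnf4a thus differed in direction from the other 7 genes. Because the same values chose the genes, these directions are no test of the set's label as primitive endoderm regulators.

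CITED1 is a transcriptional coactivator that binds CBP and p300 and is expressed in the placenta, among other tissues. Cited1 (chromosome X, 102247381 to 102252181, mm10) measured 0.774 FPKM in the control group and 37.8 FPKM in the knockout group, a ratio of 48.8. Its deposited log2 change of 5.61 had an implied error of 1.69, the largest of the 8, and q = 0.498 in the authors' deposited table. PDGFRA is a receptor tyrosine kinase widely used as a surface marker of primitive endoderm. Pdgfra (chromosome 5, 75152292 to 75198215, mm10) measured 1.22 FPKM in the control group and 14.5 FPKM in the knockout group, 11.9-fold higher. Its deposited log2 change of 3.57 had the smallest implied error of the 8, 0.69, with q = 0.0012 in the authors' deposited table.

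**Figure D1:**
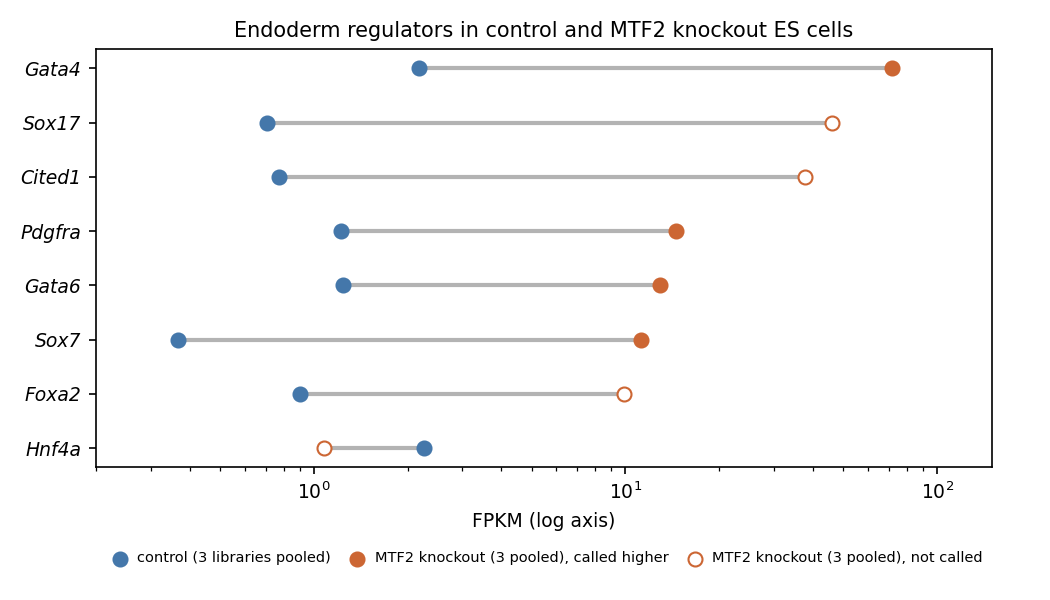
Pooled FPKM (log axis) of the 8 regulators in control (blue) and MTF2 knockout (orange) cells, 1 value per group from 3 libraries combined, with filled orange points for genes called higher. Knockout values of 7 genes lie to the right of control, up to 71.7 FPKM for Gata4, and Hnf4a runs the other way, from 2.25 to 1.08 FPKM.

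In knockout cells the levels per transcript length fell in the order Gata4, Sox17, Cited1, Pdgfra, Gata6, Sox7, Foxa2 and Hnf4a. In control cells the order was Hnf4a, Gata4, Gata6, Pdgfra, Foxa2, Cited1, Sox17 and Sox7. With no spread between libraries, neighbours in either order cannot be separated. Among all genes of the table, Gata4 lay at percentile 56.8 of control levels and percentile 93.9 of knockout levels. Sox17 moved from percentile 48.2 to 90.7, Cited1 from 48.9 to 88.7 and Sox7 from 43.8 to 73.8. Ordered by log2 ratio over all 11362 tested genes, Sox17 held rank 6 from the top, Cited1 rank 13, Gata4 rank 17 and Sox7 rank 36. Pdgfra held rank 67, Gata6 rank 82 and Foxa2 rank 87. The 4 regulators that were called are thus not the 4 with the largest ratios.

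Sox17, Cited1 and Foxa2 were set apart from the called genes by the deposited p more than by the deposited statistic. Sox17 had a test statistic of 4.15, above the 3.69 of Gata6 and the 3.63 of Sox7, but p = 0.0945 against 5e-05 and 0.00045 in the authors' deposited table. Cited1 had a statistic of 3.33 with p = 0.247, and Foxa2 a statistic of 2.84 with p = 0.241, in the authors' deposited table. Among the 100 tested genes closest to Sox17 in absolute statistic, 97 were called and 3 had a larger p in the authors' deposited table. Among the 100 closest to Cited1, 95 were called and 0 had a larger p, and among those closest to Foxa2, 92 were called and 2 had a larger p, in the authors' deposited table. An absolute statistic of 3 or more was reached by 223 tested genes, of which 211 were called, and Sox17 and Cited1 are among the 12 that were not. Of those 12, 10 had an FPKM under 1 in 1 group. The same was true of some called genes with such a statistic, among them Sox7, Dab2, Cubn and Krt19. Their share of the 211 was not computed. With a normal p computed from the statistic instead (Benjamini-Hochberg adjusted over all tested genes), Sox17 had an adjusted q of 0.0052, Cited1 0.0683 and Foxa2 0.185, and 5 of the 8 genes were called, at a background of 0.836% called higher. Hnf4a differed from these 3, with a statistic of -1.14 and p = 0.065, and 0 of the 100 genes closest to it in absolute statistic were called in the authors' deposited table. The cause of the gap between statistic and p was not tested.

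**Figure D2:**
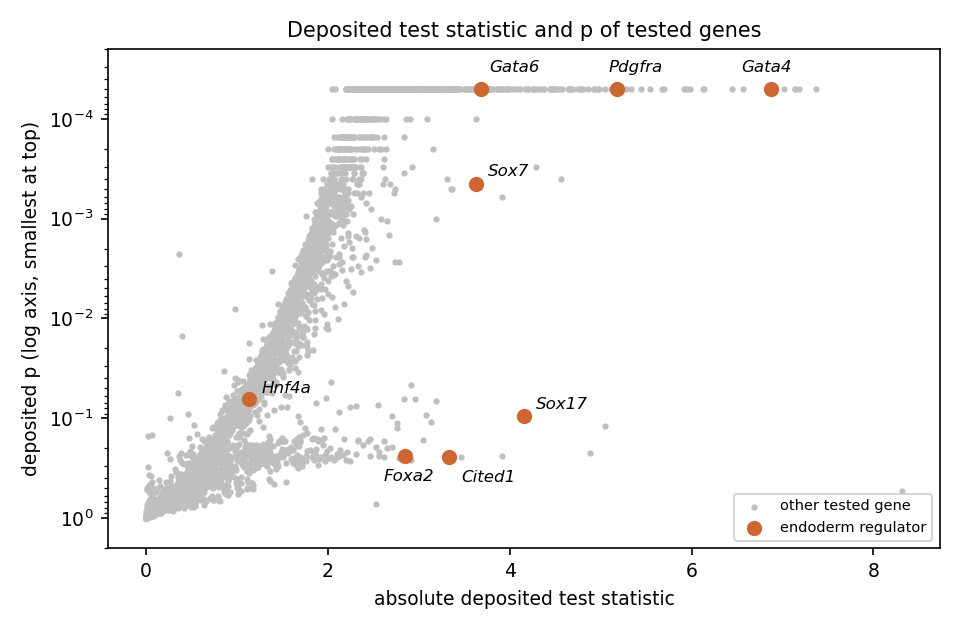
Absolute deposited test statistic (horizontal) and deposited p (vertical, log axis, smallest at the top) of tested genes with a finite log2 change in grey and of the 8 regulators in orange. Gata4, Gata6 and Pdgfra lie at the smallest p, 5e-05, while Sox17, Cited1 and Foxa2 lie apart from most genes of like statistic at p between 0.0945 and 0.247.

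The implied errors of the 8 genes were set among those of the 500 tested genes nearest in mean FPKM. The error of Cited1 lay at percentile 98.0 and that of Sox17 at percentile 97.2 of these genes. The called genes lay at 90.8 (Gata4), 88.6 (Sox7), 79.0 (Gata6) and 55.8 (Pdgfra). Of the other uncalled genes, Foxa2 lay at 83.8 and Hnf4a at 19.2. Against the 500 genes nearest in the lower of both FPKM values, a comparison added after the data were seen, Cited1 lay at percentile 68.8 and Sox17 at 45.2. Genes with such a low value in 1 group thus often had errors of this size.

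PRC2 with Polycomb-like proteins gathers at unmethylated CpG islands, so the start sites of the regulators were read for CpG content. RefSeq promoter windows of GRCm38.p6, the reference of mm10, were matched by symbol for 4 of the 8 genes, namely Foxa2, Hnf4a, Cited1 and Pdgfra. Gata4, Gata6, Sox17 and Sox7 were not matched. Each window holds 250 bases before and 50 after a start site, and for each gene the window nearest to the 5′ end of the deposited locus is shown, 5′ to 3′ on the gene's strand, with every CG in capitals. The windows are chr5:75152001-75152300 on the plus strand for Pdgfra, chrX:102252132-102252431 on the minus strand for Cited1, chr2:148046920-148047219 on the minus strand for Foxa2 and chr2:163546905-163547204 on the plus strand for Hnf4a.
Pdgfra: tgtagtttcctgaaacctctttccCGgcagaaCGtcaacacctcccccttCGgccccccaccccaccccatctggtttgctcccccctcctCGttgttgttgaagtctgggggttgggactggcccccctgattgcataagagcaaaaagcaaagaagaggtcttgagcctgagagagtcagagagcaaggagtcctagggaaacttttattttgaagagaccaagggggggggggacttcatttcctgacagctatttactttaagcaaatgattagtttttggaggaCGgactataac
Cited1: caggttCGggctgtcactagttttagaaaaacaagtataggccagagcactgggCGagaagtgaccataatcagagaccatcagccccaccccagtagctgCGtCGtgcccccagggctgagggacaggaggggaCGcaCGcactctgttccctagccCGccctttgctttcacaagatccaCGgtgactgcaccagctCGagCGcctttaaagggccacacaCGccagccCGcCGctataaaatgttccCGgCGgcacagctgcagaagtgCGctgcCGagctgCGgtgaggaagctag
Foxa2: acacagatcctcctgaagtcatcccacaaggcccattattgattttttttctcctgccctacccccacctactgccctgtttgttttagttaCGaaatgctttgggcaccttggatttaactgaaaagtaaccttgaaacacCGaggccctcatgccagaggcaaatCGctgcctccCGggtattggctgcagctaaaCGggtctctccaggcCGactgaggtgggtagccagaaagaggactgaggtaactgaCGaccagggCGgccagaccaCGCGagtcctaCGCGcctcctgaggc
Hnf4a: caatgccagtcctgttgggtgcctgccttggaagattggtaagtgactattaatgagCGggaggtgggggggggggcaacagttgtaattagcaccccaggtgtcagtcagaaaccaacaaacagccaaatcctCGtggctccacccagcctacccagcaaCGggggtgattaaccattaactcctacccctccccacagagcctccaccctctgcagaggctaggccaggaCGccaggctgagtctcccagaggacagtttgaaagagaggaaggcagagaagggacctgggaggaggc

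The CG count was 18 in the Cited1 window, 12 in that of Foxa2, 5 in that of Pdgfra and 4 in that of Hnf4a, where the median over 32841 windows was 7. Cited1 thus lay at percentile 70.3 and Foxa2 at 60.4 of all windows, and Pdgfra at 38.0 and Hnf4a at 31.4. The ratio of observed to expected CpG was 0.675 for Cited1, 0.548 for Foxa2, 0.256 for Pdgfra and 0.163 for Hnf4a, against a median of 0.384. Pdgfra, called higher, and Hnf4a, lower and not called, had similar CG counts in the windows shown. The RefSeq gene of Pdgfra begins at 75151322, upstream of its window, and that start was not read. As the other called genes, Gata4, Gata6 and Sox7, had no window, CG content cannot be compared between called and uncalled genes. Other RefSeq start sites changed the picture for some genes, with 14 to 32 CG over the 3 windows of Cited1, 12 to 23 over the 3 of Foxa2 and 4 in both windows of Hnf4a. The deposited Hnf4a locus begins at the downstream start site and does not span the upstream one. Motif letters of GATA factors (AGATAA and TGATAA), SOX factors (ACAAAG) and forkhead factors (TGTTTAC) were searched on both strands, with overlaps allowed, and 0 matches were found in the 4 windows shown. Over all windows, 11.2% held AGATAA, 9.05% TGATAA, 18.7% ACAAAG and 3.65% TGTTTAC.

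The regulators lie on 6 chromosomes, and their expressed neighbours were read for the same ratio. For each regulator the 10 nearest genes on each side with an FPKM of 1 or more in either group were taken, leaving out the other regulators. Neighbours of Gata4 had a median log2 ratio of 1.38, with 18 of 20 higher in knockout cells and 11 called higher in the authors' deposited table. Neighbours of Sox7, which begins 698 kb from the end of Gata4 and shares 16 of these neighbours, had a median of 1.50 with 11 of 20 called higher in the authors' deposited table. Over all tested genes, 6.90% were called higher. Some of these neighbours were not tested and could not be called. The median of the 405 expressed genes of chromosome 14 was 0.71. The ratio of Gata4, 4.76, and that of Sox7, 3.76, lay above every neighbour, by 3.38 and 2.26 over the neighbour medians. The part of this regional shift in the values of Gata4 and Sox7 was not tested. Among the nearest called neighbours were Neil2 (1.27 and 7.72 FPKM), a DNA glycosylase gene, and the cathepsin gene Ctsb (11.5 and 30.3 FPKM) beside Gata4, and Pinx1 (22.2 and 50.4 FPKM), a telomerase inhibitor gene, and the phosphatase-family gene Mtmr9 (4.46 and 24.0 FPKM) beside Sox7.

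Away from chromosome 14 the neighbour medians lay closer to 0, while single neighbours were called. These medians were 0.09 for Gata6, 0.19 for Sox17, 0.22 for Foxa2, 0.31 for Pdgfra, -0.01 for Cited1 and -0.34 for Hnf4a. Called higher were 2 neighbours of Gata6, 1 of Sox17, 3 of Foxa2 and 1 of Cited1 in the authors' deposited table. Called lower were 3 of Pdgfra, 1 of Cited1 and 1 of Hnf4a in the authors' deposited table. Over all tested genes these shares were 6.90% higher and 6.03% lower, while some neighbours were not tested and could not be called. Neighbour ratios ran from -3.33 to 3.56 around Foxa2 and from -2.19 to 1.79 around Pdgfra. Sox17 had 10 such neighbours, all after it, because 0 expressed genes lay before it on chromosome 1. The ratios of Gata6, Sox17, Cited1 and Pdgfra were above all their neighbours, and 1 neighbour of Foxa2 exceeded it. Hnf4a, at -0.80, lay within the range of its neighbours, 4 of which were lower. The called neighbours nearest to Foxa2 were Napb, a vesicle fusion gene (0.463 and 2.02 FPKM), and 8030411F24Rik, listed at 0 for control and 2.59 FPKM for knockout cells. The stem cell factor receptor gene Kit, near Pdgfra, was called lower, from 22.1 to 11.6 FPKM (q = 0.0038 in the authors' deposited table).

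**Figure D3:**
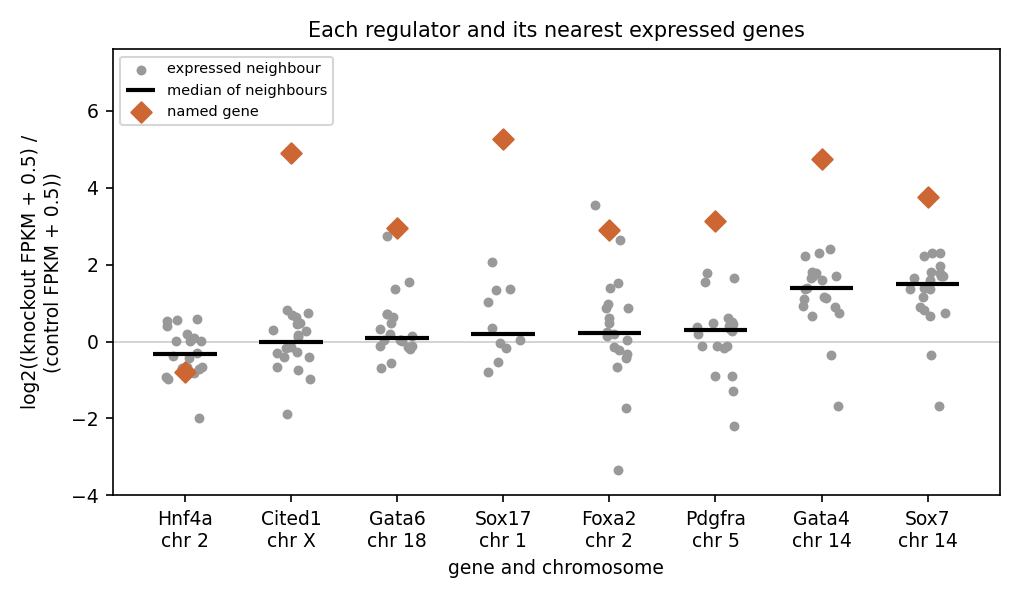
Log2 ratio of knockout to control (FPKM + 0.5) for each regulator (orange diamonds), its nearest expressed neighbours (grey points, 20 per gene and 10 for Sox17) and their median (black bars). Neighbour medians are 1.38 and 1.50 for Gata4 and Sox7 and between -0.34 and 0.31 for the other 6 genes.

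Close relatives of the regulators were read beside them. In the GATA family, Gata2, a factor of blood and trophoblast, went from 0.547 to 4.74 FPKM and was called higher (q = 0.0022 in the authors' deposited table). Gata1 (0.827 and 0.246 FPKM), Gata3 (0.906 and 0.999 FPKM) and Gata5 (0.118 and 0.153 FPKM) were under 1 FPKM in both groups and not tested. The third SoxF gene, Sox18, a vascular factor, was listed at 0 for control and 0.126 FPKM for knockout cells and was not tested. Of the other FoxA genes, Foxa1 (0.207 and 0.255 FPKM) was not tested, and Foxa3 (5.95 and 6.08 FPKM) was not called (q = 0.972 in the authors' deposited table).

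Among other liver-type regulators, Cebpb, a leucine zipper factor, was called higher, from 8.40 to 19.0 FPKM (q = 0.0283 in the authors' deposited table). Onecut1 (0.320 and 0.993 FPKM), Onecut2 (0.0529 and 0.352 FPKM), Cebpa (0.236 and 0.660 FPKM) and Hnf4g, listed at 0 in both groups, were not tested. In the CITED family, Cited2, another CBP and p300 binding factor, went from 60.2 to 99.8 FPKM and was called higher (q = 0.0154 in the authors' deposited table), and Cited4 (0.332 and 1.15 FPKM) was not tested.

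The ligand of the receptor was well above the receptor in control cells. Pdgfa, the main ligand of PDGFRA, measured 66.8 and 74.4 FPKM (q = 0.726 in the authors' deposited table), while Pdgfra was at 1.22 and 14.5 FPKM. Pdgfb (1.67 FPKM in both groups) and Pdgfc (1.60 and 3.26 FPKM) were not called, and Pdgfd was listed at 0 in both. The other receptor gene, Pdgfrb, a fibroblast and pericyte gene, stood at 1.72 and 0.608 FPKM (q = 0.0981 in the authors' deposited table) and was not called. Of 11 GATA cofactors and partners, 6 were tested and 0 called in the authors' deposited table. Over all tested genes 6.90% were called higher and 6.03% lower. The uncalled partners include the friend-of-GATA gene Zfpm1 (5.98 and 8.02 FPKM) and Ep300 (42.3 and 30.2 FPKM).

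The 25 other primitive endoderm genes listed include known targets of the regulators. The authors' deposited table calls 18 of the 24 tested higher and 0 lower, beside 6.90% and 6.03% of all tested genes, with a median log2 ratio of 2.68 against -0.0035 over all tested genes. This list was drawn up with earlier results of the same table known, so its count is no independent evidence. Of the 25 genes, 23 had a higher knockout FPKM. The other 2, Nid2 (148 and 109 FPKM) and Cpn1 (11.4 and 5.73 FPKM), were lower and not called. Leading calls were Aqp8, a water channel gene listed at 0 for control and 17.8 FPKM for knockout cells, Dab2, an endocytic adaptor needed for primitive endoderm to sort to the surface (0.526 and 30.3 FPKM), and the collagen chain gene Col4a2 (4.86 and 159 FPKM). Col4a2, Col4a1 and Plat, 3 of the called genes, lie on chromosome 8, whose expressed genes had a median log2 ratio of 0.01 but where the 20 nearest expressed neighbours of Col4a2 had a median of 0.86, with 7 called higher, beside its own 4.90. Of the 20 tested genes outside chromosomes 8 and 14, a split chosen after the data were seen, 15 were called higher in the authors' deposited table.

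Tested markers of both derivatives of primitive endoderm had a median log2 ratio above 0, at 3.01 for parietal and 1.30 for visceral endoderm genes. Over all listed genes with a value, tested or not, the medians were 2.99 for parietal and 0.50 for visceral endoderm genes. Of the visceral genes, 11 were not tested. Of 15 tested parietal endoderm genes, 13 were called higher and 0 lower in the authors' deposited table, beside 6.90% called higher among all tested genes. The matrix protein gene Sparc (180 and 788 FPKM), the protease gene Plat (0.556 and 7.72 FPKM), the keratin gene Krt19 (0.554 and 35.0 FPKM), Col4a1 (6.49 and 185 FPKM) and the parathyroid hormone receptor gene Pth1r (1.18 and 17.3 FPKM) were called, but Snai1 (3.26 and 2.72 FPKM) was not and Thbd was listed at 0 for control and 0.259 FPKM for knockout cells. Col4a1 and Plat lie on chromosome 8, where the median log2 ratio over the 20 nearest expressed neighbours was 0.86 for Col4a1 and 1.09 for Plat, against their own 4.73 and 2.96. The parietal list shares 9 of its 16 genes with the other primitive endoderm genes. Of 10 tested visceral endoderm genes, 2 were called higher, the endocytic receptor gene Cubn (0.279 and 5.10 FPKM) and the lipoprotein gene Apoe (1458 and 4298 FPKM), in the authors' deposited table, again beside 6.90%. Cyp26a1 (0.329 and 166 FPKM), Amn (0.356 and 11.5 FPKM) and Ihh (0.626 and 8.19 FPKM) were tested and left uncalled. Among the transport protein genes of mature visceral endoderm, Ttr stood at 0 and 1.29 FPKM, Afp at 0 and 0.0945 FPKM, Apoa1 at 0.249 and 0.883 FPKM and Trf at 1.29 and 1.03 FPKM, and these 4 were not tested. The retinol carrier gene Rbp4 (2.72 and 6.16 FPKM) was tested and left uncalled. The difference between both lists was not tested. Of 4 tested genes of the anterior visceral endoderm list, 1 was called higher and 0 lower, beside 6.90% and 6.03% of all tested genes. The call was Bmp2, listed at 0 for control and 1.59 FPKM for knockout cells. Lefty1 (1.86 and 6.53 FPKM), Hhex (5.27 and 3.05 FPKM) and Otx2 (8.01 and 5.48 FPKM) were left uncalled. Cer1 was listed at 0 in both groups.

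Sox17 and Foxa2 also mark definitive endoderm, so genes of gastrulation were read beside them. Of 10 tested, 1 was called higher and 0 lower in the authors' deposited table, beside 6.90% and 6.03% of all tested genes. The call was the SoxB gene Sox21 (2.88 and 12.2 FPKM), and the median log2 ratio of the 10 was 0.02. Sox21 lies on chromosome 14, and its log2 ratio of 1.91 stood beside a median of 0.74 over its 20 nearest expressed neighbours, of which 8 were called higher. The defining markers T (3.91 and 1.94 FPKM), Eomes (6.07 and 3.90 FPKM), Gsc (0.923 and 0.918 FPKM) and Mixl1 (0 and 0.274 FPKM) were not called or not tested. Cxcr4 stood at 0.193 and 1.84 FPKM with q = 0.43 in the authors' deposited table. Summed over the 19 genes of this list, the level was 398 FPKM for control and 492 FPKM for knockout cells, most of it Trh (365 and 451 FPKM).

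Genes of the FGF and ERK signal that promotes this programme were called at shares near the background. The authors' deposited table calls 2 of 28 tested FGF and ERK pathway genes higher and 3 lower, beside 6.90% and 6.03% of all tested genes, with a median log2 ratio of 0.03. The immediate early gene Egr1 (20.9 and 45.4 FPKM) and the feedback inhibitor gene Spry1 (6.30 and 12.7 FPKM) were higher. The ERK-responsive factor genes Etv4 (161 and 88.3 FPKM) and Etv5 (130 and 80.1 FPKM) and the kinase gene Map2k2 (140 and 82.3 FPKM) were lower. The ligand gene Fgf4 (61.4 and 57.5 FPKM) and the receptor gene Fgfr2 (0.971 and 1.42 FPKM), which primitive endoderm precursors use, were not called.

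Epiblast factors and markers of other cell types were read for comparison. The authors' deposited table calls 3 of 19 tested epiblast pluripotency factors higher and 1 lower, beside 6.90% and 6.03% of all tested genes, with a summed level of 6489 FPKM for control and 6551 FPKM for knockout cells. The called genes were Tfcp2l1 (34.0 and 60.8 FPKM), Klf5 (305 and 522 FPKM) and Tdgf1 (41.3 and 70.6 FPKM), which were higher, and Utf1 (352 and 215 FPKM), which was lower. Klf5 lies on chromosome 14, and its log2 ratio of 0.78 stood beside a median of 0.69 over its 20 nearest expressed neighbours. Trophectoderm markers summed to 57.8 and 57.9 FPKM over 13 genes, with 0 of 6 tested called higher and 1 lower, Tfap2c (16.9 and 7.41 FPKM), in the authors' deposited table. Most of each sum was Tfap2c and Tead4 (25.8 and 37.9 FPKM, not called), which moved in opposite directions. The defining trophectoderm genes Cdx2 (0.573 and 0.798 FPKM), Elf5 (0.645 and 0 FPKM) and Krt7 (0.228 and 0.268 FPKM) were under 1 FPKM. Fibroblast markers, relevant because PDGF receptors mark stroma, summed to 48.1 and 35.6 FPKM over 12 genes, with 1 of 4 tested called lower, Fbln1 (38.9 and 18.5 FPKM), in the authors' deposited table. Col1a1 (0.142 and 0.773 FPKM), Col1a2 (0.0599 and 0.241 FPKM) and Col3a1, listed at 0 in both, were near 0, and Thy1 (5.14 and 11.4 FPKM) was not called. Of 4 tested neural markers 0 were called, and of 5 tested cardiac and mesoderm markers 1 was called, Gata2, in the authors' deposited table. Of the 13 PRC2 subunit genes, 3 were called lower and 0 higher in the authors' deposited table. One of these was Mtf2, the targeted gene itself, and the others were Phf19 (457 and 149 FPKM) and Aebp2 (81.3 and 33.6 FPKM).

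**Figure D4:**
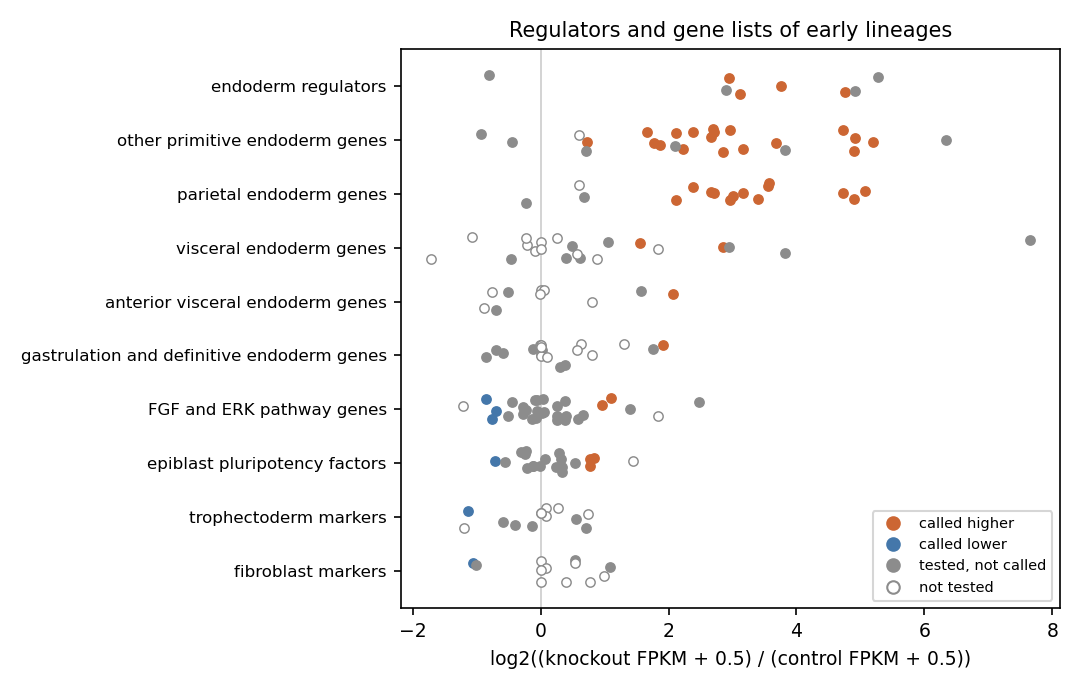
Log2 ratio of knockout to control (FPKM + 0.5) for each gene of the 8 regulators and of 9 gene lists, with filled orange points for genes called higher, blue for lower, grey for tested and not called, and open points for genes not tested. Most of the 24 tested other primitive endoderm genes and the 15 tested parietal genes lie to the right, while epiblast, trophectoderm and fibroblast genes lie on both sides of 0.

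Genes with levels most like those of each regulator were found by distance in the plane of log2(control FPKM + 0.5) and log2(knockout FPKM + 0.5), which rests on 2 pooled values. Nearest to Gata4 were Car4 (2.24 and 58.8 FPKM), a carbonic anhydrase gene, the stress factor gene Atf3 and the tissue factor gene F3. Sox17 and Cited1 were near each other, at a distance of 0.293, and both had the cathepsin gene Ctsh (0.757 and 41.9 FPKM) and the keratin gene Krt19 as the other near genes. Ctsh and Krt19 were called higher at these levels (q = 0.0052 and q = 0.0090 in the authors' deposited table), whereas Sox17 and Cited1 were not. Gata6 and Pdgfra were also near each other, at a distance of 0.161, with Cxcl16 (1.35 and 11.8 FPKM) near both. Polr2k was the third gene near Gata6 and Pth1r the third near Pdgfra. Nearest to Sox7 was Amn (0.356 and 11.5 FPKM), the partner of cubilin in visceral endoderm, at 0.0397, followed by the hindlimb factor gene Pitx1 and by Gm4707. Near Foxa2 lay Cpt1b (1.06 and 8.80 FPKM) and Bmp1 (0.761 and 11.6 FPKM). Near Hnf4a lay Ncmap, Cd1d1 and Upk1a, of which 0 were called in the authors' deposited table.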

How the data were processed

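RNA-seq was done on 6 libraries, 3 control and 3 MTF2 knockout, among 43 samples of the series. The 36 ChIP-seq samples and 1 input sample were not analysed here. Per the submitters' processing notes, Bowtie 1.0, TopHat2 2.1.0, deepTools and Cuffdiff 2.2.1.3 were used, with the builds mm9 and mm10 and no roles stated. The FPKM values, 1 per gene and group, the log2 fold change, the test statistic (a score) and the p-value and q-value are the authors' own, per the file headers. Deposited log2 changes matched the deposited FPKM to 1.29e-05, and the deposited q matched a Benjamini-Hochberg adjustment of p over all 11362 tested genes (status OK) to 5.2e-07. The smallest deposited p was 5e-05. A further 11098 genes were not tested and 2 failed. Locus starts were moved to 1-based; the 8 genes lay on the chromosomes RefSeq gives them on GRCm38.p6.

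Ratios used a pseudocount of 0.5, which understates changes of low genes, and no filter. Calls are status OK with the authors' q at or under 0.05. Since the table has no values per library, it allows no SD and no test between libraries, and no set test was run. The 8 genes, 20 lists and tests were chosen with earlier results of these data known. Named genes were the 8, Mtf2, relatives in the small families, up to 3 calls per direction in each other list, defining markers, 3 nearest profiles and called genes among the 4 nearest neighbours; some genes that this rule takes are not reported here. Pth1r, Trh, Fgf4, Fgfr2, Zfpm1, Ep300, Cer1, Lefty1, Hhex, Otx2, Nid2, Cpn1, Tead4 and the genes of the closing section were named with their values already seen. The alternatives tried were q at or under 0.01, at least 2-fold change, 1 FPKM or more in both groups, a normal p from the test statistic, pseudocounts of 0.1 and 1, centring on all genes or on neighbours, and 10 or 40 neighbours or neighbours of 5 FPKM or more. The code for the neighbour medians and the adjusted p was run on data with planted shifts. That run checks the calculation only and not how reliable the values reported here are. Python 3.11.15, pandas 2.3.3, NumPy 2.4.6 and SciPy 1.17.1 were used.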

Additional observations from a re-analysis of the deposited data

How the results depend on the processing

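No paired analysis was possible because the table holds 1 pooled value per group, and leaving out a library was impossible for the same reason. Of the 8 regulators, 4 were called higher with the main settings, at a q of 0.01 and with a 2-fold minimum. These settings called 6.90%, 3.86% and 4.67% of all tested genes higher. With an FPKM of 1 or more in both groups 3 regulators were called, beside 6.15% of all tested genes. With a normal p 5 regulators were called, beside 0.836%. Without both genes of chromosome 14, chosen after seeing the data, 2 of the other 6 were called, beside 6.90% of all tested genes. The median log2 ratio of the regulators ran from 2.84 (centred on neighbours) to 4.03 (pseudocount 0.1). Among single regulators, centring on neighbours moved Gata4 from 4.76 to 3.38 and Sox7 from 3.76 to 2.26, by more than their implied errors, and the other 30 single values moved by less. Other primitive endoderm genes called higher numbered 12 to 18. Of 24 tested, 18 were called with the main settings, beside 6.90% of all tested genes, and 12 with a normal p, beside 0.836%. Neighbour medians ran from 1.26 to 1.38 for Gata4 and 1.36 to 1.67 for Sox7, and from 0.22 to 0.68 for Foxa2, while those of Gata6, Sox17, Hnf4a, Cited1 and Pdgfra, between -0.54 and 0.42, changed sign between settings. Matching on the lower FPKM, chosen after seeing the data, moved the percentile of the implied error from 90.8 to 18.2 for Gata4, 79.0 to 19.8 for Gata6, 97.2 to 45.2 for Sox17, 88.6 to 21.6 for Sox7, 83.8 to 35.8 for Foxa2, 98.0 to 68.8 for Cited1 and 55.8 to 3.4 for Pdgfra.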

Other observations

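Some other endoderm genes shared the pattern of Sox17 and Cited1, a high ratio without a call, and were picked after their values were seen. In the authors' deposited table, the retinoic acid hydroxylase gene Cyp26a1 stood at 0.329 and 166 FPKM with p = 0.225, and the channel gene Clic6 at 0.192 and 55.3 FPKM with p = 0.12. The cubilin partner gene Amn stood at 0.356 and 11.5 FPKM with p = 0.249, and Ihh, a hedgehog ligand of visceral endoderm, at 0.626 and 8.19 FPKM with p = 0.262, in the authors' deposited table. All 4 were under 1 FPKM in control cells. The called genes Sox7 (0.367 FPKM), Dab2 (0.526 FPKM), Cubn (0.279 FPKM) and Krt19 (0.554 FPKM) were also under 1 FPKM there. The FGF receptor gene Fgfr3 stood at 0.366 and 4.34 FPKM with q = 0.257 in the authors' deposited table.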
